A study of Homo sapiens with 12 samples.

Results

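The genes described here are 10 human genes whose proteins are rich in arginine and serine (RS-rich) and which work in pre-mRNA splicing: LUC7L, LUC7L2, LUC7L3, RSRP1, SRRM1, SRRM2, TRA2A, TRA2B, PNISR and SREK1. They are 10 of the 60554 gene IDs in the count files, and all 10 passed the filter on low counts that left 29003 genes for testing. LUC7L, LUC7L3 and RSRP1 were chosen by their levels in these libraries, since all 3 had shown a shared fall after the knockdowns. Their levels against control are therefore a description with no test. The other 7 were listed by name as genes of RS-rich nuclear speckle proteins, and they were tested. That listing was also made with earlier results of these data known.

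The 3 LUC7-like proteins are relatives of a yeast protein of the U1 small nuclear ribonucleoprotein (snRNP), which recognises the 5′ splice site at the start of an intron. Domains of alternating arginine and serine bind other splicing proteins and change their contacts when the serines are phosphorylated. Many proteins with such domains gather in nuclear speckles, where splicing factors are stored and modified. Several genes of this kind are known to control their own RNA through alternative exons or retained introns that keep a transcript in the nucleus or expose it to nonsense-mediated decay.

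The arginine and serine codons can be seen directly in the coding sequence, which is shown here for the 7 members on which the results below turn most. Each line is the stretch of 60 coding bases (20 codons) with the most adjacent arginine-serine pairs, read 5′ to 3′ on the coding strand from GENCODE 29 on GRCh38. Capitals mark codons that belong to an arginine next to a serine, in either order.
LUC7L: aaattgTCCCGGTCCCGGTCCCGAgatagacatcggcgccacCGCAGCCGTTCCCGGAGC
LUC7L2: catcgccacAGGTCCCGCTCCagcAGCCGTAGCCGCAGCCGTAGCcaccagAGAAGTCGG
LUC7L3: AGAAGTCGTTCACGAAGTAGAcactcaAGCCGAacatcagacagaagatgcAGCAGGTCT
RSRP1: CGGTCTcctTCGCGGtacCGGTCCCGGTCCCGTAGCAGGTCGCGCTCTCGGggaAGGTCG
PNISR: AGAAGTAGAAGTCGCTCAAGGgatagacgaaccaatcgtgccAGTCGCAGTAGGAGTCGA
TRA2A: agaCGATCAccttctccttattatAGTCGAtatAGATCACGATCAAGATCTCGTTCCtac
TRA2B: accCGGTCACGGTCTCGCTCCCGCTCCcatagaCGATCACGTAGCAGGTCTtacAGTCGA

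These stretches lie at chr16:190018-190077 (minus strand, exon 9) for LUC7L, chr7:139417629-139417688 (plus strand, exon 9) for LUC7L2 and chr17:50745900-50745959 (plus strand, exon 8) for LUC7L3. For RSRP1 the stretch is chr1:25246589-25246648 (minus strand, exon 2), for PNISR chr6:99401047-99401106 (minus strand, exon 12), for TRA2A chr7:23505753-23505812 (minus strand, exon 7) and for TRA2B chr3:185925533-185925592 (minus strand, exon 3). RSRP1 and TRA2B hold 13 pairs in 20 codons. LUC7L2 and PNISR hold 11, LUC7L holds 10, and LUC7L3 and TRA2A hold 9. Over its whole coding sequence RSRP1 has 59 arginine-serine pairs in 290 codons, or 20.3 pairs per 100 codons, and TRA2B has 17.4. The lowest of the 10 is SRRM1 with 5.75 pairs per 100 codons, against a median of 0.763 over 16171 protein-coding genes. Being RS-rich was a ground for listing most of these genes, so the codon counts describe them and test nothing.

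The libraries came from HEK293 cells, a human embryonic kidney line whose line label is HEK293T, at passage 10. Cells received an siRNA pool against RBM17, U2SURP or CHERP, or the non-targeting siRNA #3 as control, with 3 libraries in each of the 4 groups. The 3 targets encode proteins that associate with the U2 snRNP, and the comparisons ask what the loss of each does to the transcriptome. Every group is the same line, so nothing here extends to other cells, and the time between transfection and harvest is not given in the sources used here.

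Each library held between 252505520 and 320986785 gene-assigned read counts, and levels are given as counts per 1000000 of the scaled library size (CPM), each mean ± SD over n = 3 libraries. The targeted gene was low in its own group: RBM17 fell to 23% of its control mean, U2SURP to 30.5% and CHERP to 29.3%. All 9 genes listed for the embryonic kidney line were at 1 CPM or more in control and with RBM17 knockdown, as were 7 of 9 with U2SURP knockdown (not PAX2 and LHX1) and 8 of 9 with CHERP knockdown (not PAX2). Of the blood genes, the leukocyte gene PTPRC had group means of 0.002 to 0.005 CPM and the globin gene HBB had 0. The summed level of 8 fibroblast markers was 19.3 to 23.4 CPM in control, 15 to 16 with RBM17 knockdown, 11.8 to 15.6 with U2SURP knockdown and 11.1 to 14.2 with CHERP knockdown, nearly all of it COL1A1, and its part in the results below was not tested. The sums of 7 epithelial markers were 14.2 to 15.1 CPM in control and 10.7 to 11.8 CPM in the knockdown libraries, and their part was not tested either. The second RBM17 knockdown library and the third control library had the fewest detected genes of their groups, 35648 and 36859, where the other 10 libraries had 36486 to 38111. Without both, 6, 6 and 7 of the 7 genes tested against control were called with RBM17, U2SURP and CHERP knockdown, where 6, 7 and 6 were called with all libraries, and the single calls that changed are among those given below. By another measure, the chi-square per gene between the counts of a pair of libraries of 1 group, others stood apart. RBM17 knockdown library 1 gave 36.3 and 48.8 with the other libraries of its group, which gave 11.9 with each other, and CHERP knockdown library 1 gave 27.3 and 45, against 11.4. Control library 3 gave 41.8 and 41.4, against 19.1. Without RBM17 knockdown library 1, 6, 7 and 6 of the 7 genes were called with RBM17, U2SURP and CHERP knockdown, and without CHERP knockdown library 1, 6, 7 and 7. Library numbers in the titles run in a separate block for each group, so any difference between library batches and the groups cannot be told apart. In bulk RNA, a lower level in every cell and fewer cells at the control level cannot be told apart.

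**Figure D1:**
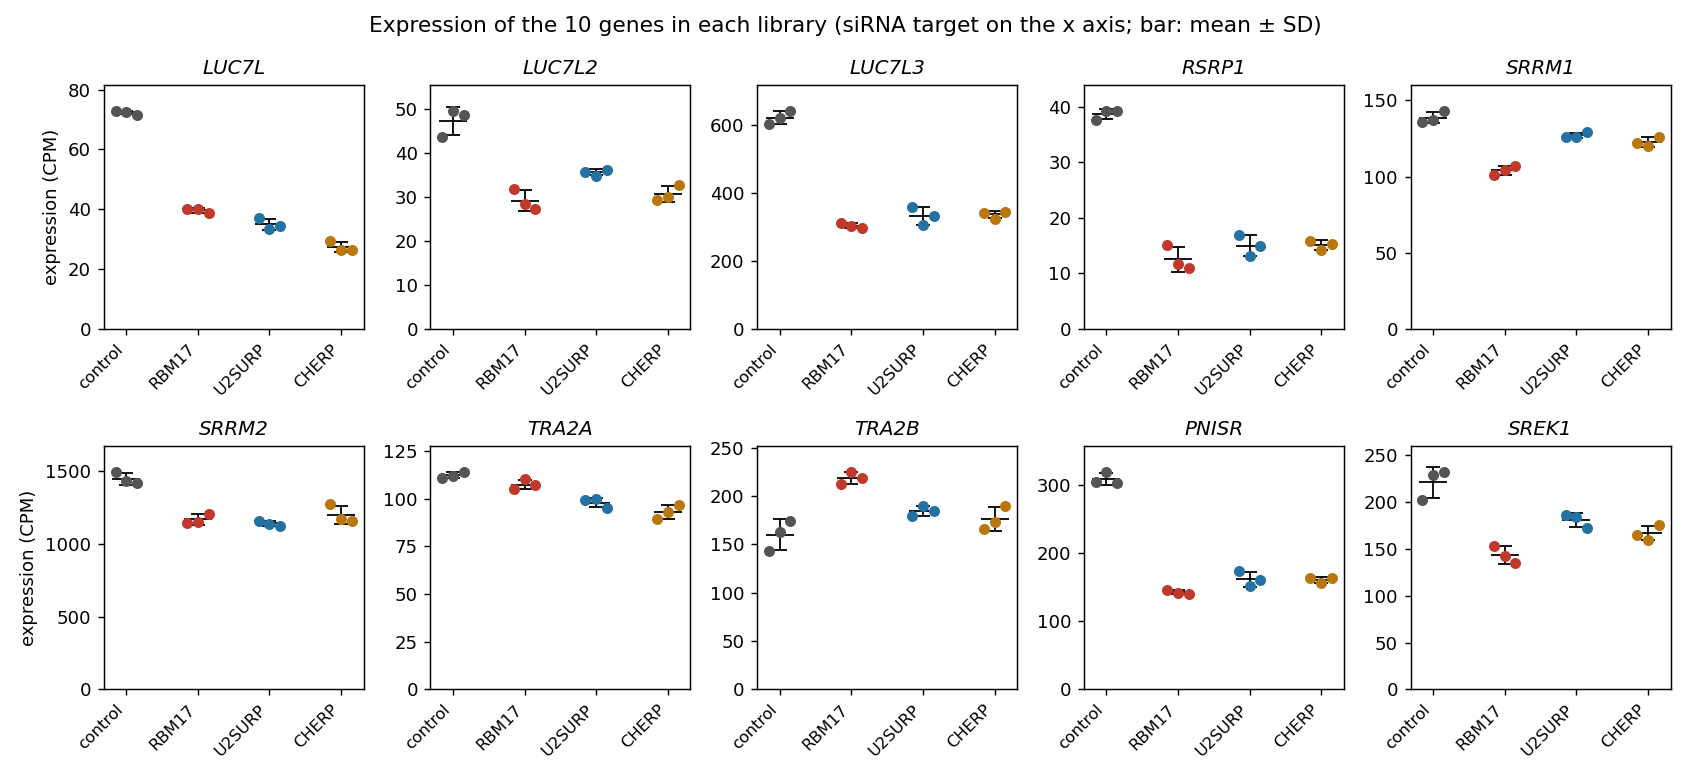
Expression of the 10 genes in every library. Each panel is a gene, the y axis is CPM from 0, points are single libraries and bars are the mean ± SD of 3 libraries. All genes but TRA2B lie lower in the 9 knockdown libraries than in any control library, by a wide margin for LUC7L, LUC7L3, RSRP1 and PNISR and a narrow one for TRA2A.

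LUC7L, LUC7L2 and LUC7L3 were all lower after each knockdown, but the knockdown with the lowest level differed between the genes. LUC7L (ENSG00000007392, chr16:188969-229463, minus strand) stood at 72.8, 72.6 and 71.6 CPM in control. It stood at 40.2, 39.9 and 38.6 CPM with RBM17 knockdown, at 37, 33.3 and 34.4 CPM with U2SURP knockdown, and at 29.2, 26.4 and 26.2 CPM with CHERP knockdown. The 4 groups do not overlap, and the order runs from control through RBM17 and U2SURP to CHERP. The log2 differences from control were -0.87 ± 0.054, -1.05 ± 0.055 and -1.41 ± 0.055 (SE), so that 54.7%, 48.2% and 37.7% of the control level remained. LUC7L was one of the 3 genes picked for this fall. Libraries did not overlap with control for all 10 genes with RBM17 and with U2SURP knockdown and for 9 of 10 with CHERP knockdown, and over all genes tested the same was so for 59.3%, 52% and 54.9%. The 10 include the 3 picked genes, whose fall from control was the ground for picking them. The count is therefore a description with no test.

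LUC7L3 (ENSG00000108848, chr17:50719544-50756213, plus strand), the most abundant of the family per length, was also picked for its fall. Its control libraries stood at 604, 621 and 642 CPM. The RBM17 knockdown libraries stood at 313, 302 and 297 CPM, those with U2SURP knockdown at 358, 306 and 333 CPM and those with CHERP knockdown at 342, 324 and 345 CPM. Control lies far above the other groups, and the 3 knockdowns lie within a narrow band in which the RBM17 and U2SURP libraries overlap, as do those of U2SURP and CHERP. The log2 differences from control were -1.03, -0.91 and -0.89, each with an SE of 0.056.

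LUC7L2 (ENSG00000146963, chr7:139340359-139423457, plus strand) was not picked for a fall, and it fell in all 3 comparisons. It stood at 43.8, 49.6 and 48.7 CPM in control, at 31.9, 28.5 and 27.2 CPM with RBM17 knockdown, at 35.8, 34.9 and 36.2 CPM with U2SURP knockdown and at 29.3, 30 and 32.8 CPM with CHERP knockdown. No knockdown library reaches the lowest control library. The log2 difference was -0.70 ± 0.063 with RBM17 knockdown (adjusted p = 1.94e-09), -0.41 ± 0.063 with U2SURP knockdown (adjusted p = 1.04e-05) and -0.62 ± 0.063 with CHERP knockdown (adjusted p = 1.84e-08). Among all genes tested, 54.7% were called in either direction with RBM17 knockdown, 43.3% with U2SURP knockdown and 47.3% with CHERP knockdown, so a call alone sets no gene apart in these deep libraries.

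Levels of different genes can be compared only per length, here as CPM per kilobase of annotated exon. On that scale LUC7L3 made up 79.9% ± 0.4 of the summed level of the 3 LUC7-like genes in control, LUC7L 12.3% ± 0.44 and LUC7L2 7.85% ± 0.37. The share of LUC7L was 13.3% ± 0.2 with RBM17 knockdown, 10.9% ± 0.23 with U2SURP knockdown and 8.72% ± 0.5 with CHERP knockdown. The share of LUC7L2 was 9.55% ± 0.49, 10.9% ± 0.61 and 9.61% ± 0.51 in the same order, above its control range in each. These shares rest on genes picked for their fall and are given with no test. LUC7L2 shares 21.8% of its exonic bases with the gene C7orf55-LUC7L2. If reads there were left uncounted, the LUC7L2 share would be too low, which was not tested.

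RSRP1 (ENSG00000117616, chr1:25242237-25338213, minus strand) encodes a small RS-rich protein, whose densest stretch is printed above, and it was the third gene picked for its fall. Its control libraries stood at 37.6, 39.2 and 39.2 CPM. The RBM17 knockdown libraries stood at 15, 11.6 and 10.9 CPM, the U2SURP knockdown libraries at 16.9, 13.1 and 14.9 CPM and the CHERP knockdown libraries at 15.8, 14.1 and 15.2 CPM. The control group stands apart and the 3 knockdown groups overlap one another. The log2 differences were -1.63, -1.37 and -1.36, each with an SE of 0.1.

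PNISR (ENSG00000132424, chr6:99398051-99425331, minus strand) encodes an RS-rich partner of the speckle protein pinin, and it was not picked for a fall. It stood at 304, 319.6 and 303 CPM in control. It stood at 146, 142 and 140.4 CPM with RBM17 knockdown, at 174, 152 and 160.3 CPM with U2SURP knockdown and at 164, 156 and 163 CPM with CHERP knockdown. All 9 knockdown libraries lie far below the lowest control library. The log2 difference was -1.12 ± 0.053 with RBM17 knockdown (adjusted p = 1.45e-13), -0.93 with U2SURP knockdown (adjusted p = 6.42e-12) and -0.94 with CHERP knockdown (adjusted p = 1.31e-12). Between 46.2% and 52.4% of the control level remained, the largest fall among the 7 genes not picked for one.

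SRRM1 and SRRM2 encode large RS-rich proteins that act together as splicing coactivators, and SRRM2 is a scaffold of the speckles. SRRM2 (ENSG00000167978, chr16:2752329-2772538, plus strand) stood at 1493, 1427 and 1418 CPM in control, at 1141, 1151 and 1207 CPM with RBM17 knockdown, at 1157, 1137 and 1124 CPM with U2SURP knockdown and at 1270.3, 1171 and 1157 CPM with CHERP knockdown. The fall was of like size in each: -0.31 (adjusted p = 2.55e-05), -0.34 (adjusted p = 1.19e-05) and -0.27 (adjusted p = 1.74e-04) on the log2 scale. No knockdown library overlaps control.

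SRRM1 (ENSG00000133226, chr1:24631716-24673267, plus strand) stood at 136, 137 and 143 CPM in control, at 101, 104 and 107 CPM with RBM17 knockdown, at 126, 126 and 129 CPM with U2SURP knockdown and at 122, 119.8 and 126 CPM with CHERP knockdown. The RBM17 knockdown libraries are the lowest, and each knockdown lies below control without overlap. The log2 difference was -0.41 with RBM17 knockdown (adjusted p = 7.34e-08), -0.13 with U2SURP knockdown (adjusted p = 0.0304) and -0.18 with CHERP knockdown (adjusted p = 0.00336). The call with U2SURP knockdown was lost in 8 of 18 alternative settings, over which the adjusted p ran from 0.00686 to 0.11.

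TRA2A and TRA2B encode a pair of closely related activators that bind purine-rich exonic enhancers. With U2SURP knockdown TRA2B rose and TRA2A fell, with RBM17 knockdown only the rise of TRA2B passed the test, and with CHERP knockdown only the fall of TRA2A did. TRA2B (ENSG00000136527, chr3:185915906-185938136, minus strand) was the only one of the 10 that rose against control in any knockdown. It stood at 143, 163 and 174 CPM in control, at 212, 225 and 219 CPM with RBM17 knockdown, at 179, 189.8 and 184 CPM with U2SURP knockdown and at 166, 173 and 189.5 CPM with CHERP knockdown. The first pair of knockdowns lies above every control library, and the CHERP libraries overlap control. The log2 difference was 0.45 with RBM17 knockdown (adjusted p = 1.53e-06), 0.20 with U2SURP knockdown (adjusted p = 0.0104) and 0.14 with CHERP knockdown (adjusted p = 0.0725). The U2SURP call was lost without control library 1 (0.13, adjusted p = 0.11) or U2SURP knockdown library 2 (0.18, adjusted p = 0.0516), over an adjusted p range of 0.00109 to 0.11. The CHERP difference passed the threshold in 5 of 18 alternatives, such as without control library 3 (0.21, adjusted p = 0.00884) or without CHERP knockdown library 1 (0.18, adjusted p = 0.0332), and its adjusted p ran up to 0.573.

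TRA2A (ENSG00000164548, chr7:23504780-23532041, minus strand) stood at 111, 112 and 114 CPM in control, at 105, 110.0 and 107 CPM with RBM17 knockdown, at 99.1, 99.5 and 95 CPM with U2SURP knockdown and at 89.5, 92.7 and 96.6 CPM with CHERP knockdown. Its knockdown libraries lie below control without overlap, those with RBM17 knockdown by little. It fell with U2SURP knockdown by 0.20 on the log2 scale (adjusted p = 0.00127) and with CHERP knockdown by 0.28 (adjusted p = 3.66e-05). With RBM17 knockdown the log2 difference was -0.068 (adjusted p = 0.238). When protein-coding genes alone entered the fit, that difference was -0.14 (adjusted p = 0.00772), in a range over the alternatives up to 0.844.

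The ratio of TRA2B to TRA2A counts, in which library scaling cancels, was 1.42 ± 0.12 in control. It was 2.04 ± 0.024 with RBM17 knockdown, 1.88 ± 0.064 with U2SURP knockdown and 1.89 ± 0.059 with CHERP knockdown. Every knockdown library, the lowest at 1.81, lay above every control library, the highest at 1.52. The exact two-sided permutation test gave p = 0.1 for each knockdown, the smallest it can give with 3 libraries against 3, and 0.1 after adjustment over the 3 tests.

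SREK1 (ENSG00000153914, chr5:66139971-66183615, plus strand) encodes an RS-rich splicing regulator with stretches of glutamate and lysine. It stood at 202, 229 and 232 CPM in control, at 153, 142 and 135 CPM with RBM17 knockdown, at 186, 184 and 172 CPM with U2SURP knockdown and at 165, 159.8 and 175 CPM with CHERP knockdown. No knockdown library reaches control. The gene fell by 0.62 on the log2 scale with RBM17 knockdown (adjusted p = 4.80e-09), by 0.29 with U2SURP knockdown (adjusted p = 3.25e-04) and by 0.41 with CHERP knockdown (adjusted p = 4.28e-06).

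**Figure D2:**
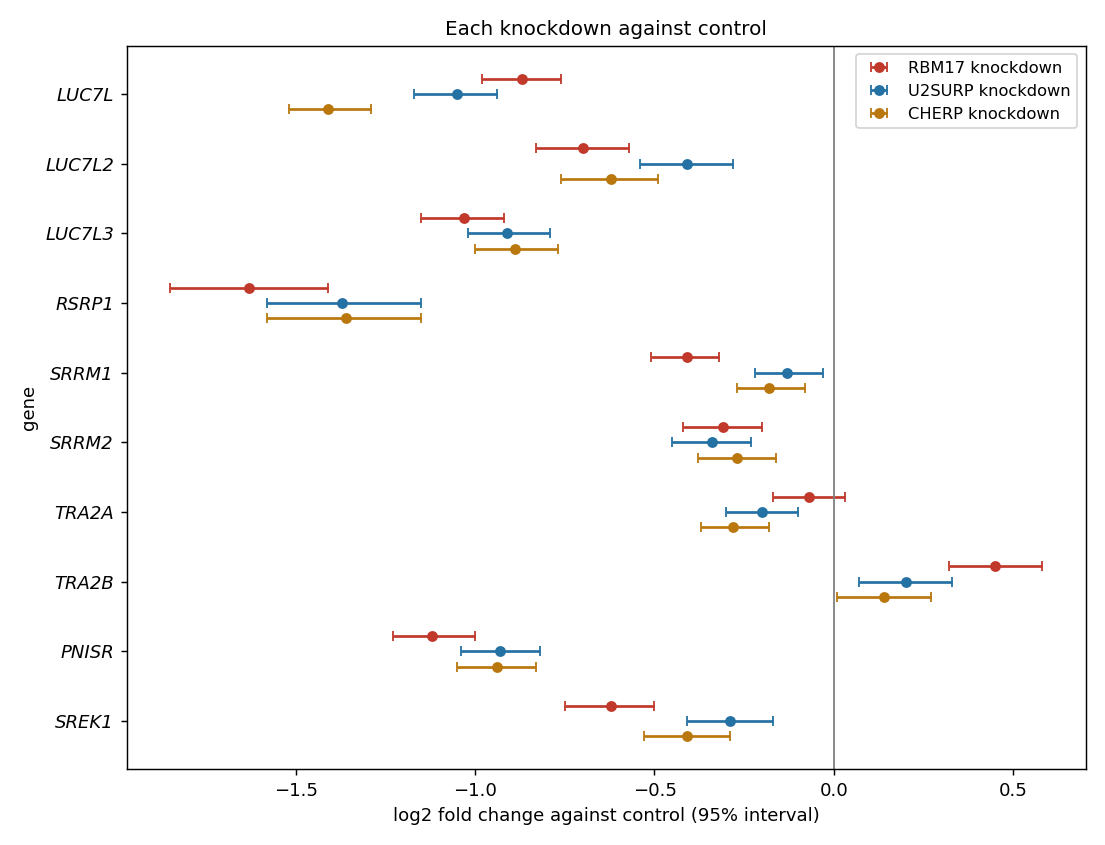
The log2 fold change of each of the 10 genes in each knockdown against control. Points are estimates of the fit over 12 libraries and bars are 95% intervals. LUC7L, LUC7L3, RSRP1 and PNISR lie farthest to the left, TRA2B lies right of 0, and for LUC7L, LUC7L3 and RSRP1 the intervals are descriptive because the genes were picked for their fall.

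Of the 7 genes not picked for a fall, 5 were lower and 1 higher with RBM17 knockdown, 6 were lower and 1 higher with U2SURP knockdown, and 6 were lower and none higher with CHERP knockdown. Among all 29003 genes tested, 29.3% were lower and 25.4% higher with RBM17 knockdown, 22.2% and 21.1% with U2SURP knockdown, and 24.6% and 22.8% with CHERP knockdown. Of 7952 protein-coding genes with a mean at least that of RSRP1, the least abundant of the 10, 22.5%, 26.4% and 31.5% were lower in the same order. LUC7L2, SRRM1, SRRM2, PNISR and SREK1 were lower in all 3 comparisons, against 10.8% of all genes and 13.3% of the protein-coding genes of this abundance. The 3 comparisons share their control libraries, so a call in all 3 is not support from independent data. The 7 genes were listed with earlier results of these data known, which limits what these counts can show.

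The knockdowns were also compared with one another, which takes the control out of the fold. With RBM17 against U2SURP knockdown 8 of the 10 genes differed, 3 higher and 5 lower with RBM17 knockdown, where 44.5% of all genes tested (23% higher, 21.5% lower) and 64.1% of protein-coding genes of this abundance differed. With RBM17 against CHERP knockdown 8 differed, again 3 higher and 5 lower, where 51.6% (26.1% higher, 25.5% lower) and 70.1% differed. With U2SURP against CHERP knockdown 2 differed, LUC7L and LUC7L2, both higher with U2SURP knockdown, where 27.9% (15% higher, 12.9% lower) and 41.9% differed. The picked genes' knockdown libraries also entered the rule that picked them, though not these contrasts. With protein-coding genes alone in the fit the RBM17 to CHERP count was 10 of 10. Without CHERP knockdown library 3 it was 4, and the U2SURP to CHERP count was 1 without U2SURP knockdown library 3, CHERP knockdown library 1 or CHERP knockdown library 2.

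LUC7L, LUC7L2, TRA2B, SRRM1 and SREK1 had the largest log2 differences between a pair of knockdowns among the genes described here. Some of their smaller differences lost their call in alternative settings, as given below. LUC7L was higher with RBM17 than with CHERP knockdown by 0.54 on the log2 scale (adjusted p = 1.31e-08) and higher with U2SURP than with CHERP knockdown by 0.36 (adjusted p = 2.45e-05). It was 0.18 higher with RBM17 than with U2SURP knockdown (adjusted p = 0.00778), a call lost without U2SURP knockdown library 2 (0.15, adjusted p = 0.0573), in a range from 0.000773 to that value. LUC7L2 ran the other way, 0.29 lower with RBM17 than with U2SURP knockdown (log2 difference -0.29, adjusted p = 6.28e-04). Its difference between RBM17 and CHERP knockdown was -0.074, with a 95% interval from -0.21 to 0.06 (adjusted p = 0.341), and it passed with protein-coding genes alone in the fit (-0.15, adjusted p = 0.0426), in a range up to 0.798. LUC7L2 was 0.21 higher with U2SURP than with CHERP knockdown (adjusted p = 0.0131), and the call was lost without U2SURP knockdown library 3 (adjusted p = 0.0509) and without CHERP knockdown library 1 (adjusted p = 0.0584) or 2 (adjusted p = 0.0636), the lowest being 0.00392.

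TRA2B was higher with RBM17 knockdown than with U2SURP knockdown by 0.25 (adjusted p = 0.0024) and than with CHERP knockdown by 0.31 (adjusted p = 1.96e-04). TRA2A was 0.21 higher with RBM17 than with CHERP knockdown (adjusted p = 7.36e-04). Its 0.13 difference from U2SURP knockdown (adjusted p = 0.0247) was lost in 6 of 18 alternatives, with adjusted p up to 0.144. SRRM1 was lower with RBM17 knockdown than with the other two, with log2 differences of -0.29 from U2SURP knockdown (adjusted p = 2.42e-05) and -0.24 from CHERP knockdown (adjusted p = 1.58e-04). SREK1 followed the same order, with -0.33 (adjusted p = 6.61e-05) and -0.22 (adjusted p = 0.00392). The second SREK1 call was lost without CHERP knockdown library 3 (-0.13, adjusted p = 0.114), the highest over the alternatives, from 0.0002.

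PNISR, LUC7L3 and RSRP1 were a little lower with RBM17 knockdown, by amounts close to the spread of the libraries. PNISR differed by -0.18 from U2SURP knockdown (adjusted p = 0.0067) and by -0.17 from CHERP knockdown (adjusted p = 0.00832). Those calls were lost without U2SURP knockdown library 1 (-0.088, adjusted p = 0.233) and without CHERP knockdown library 3 (-0.11, adjusted p = 0.138), each the highest of its range, which began at 0.000545 and 0.000301. LUC7L3 differed from CHERP knockdown by -0.15 (adjusted p = 0.0301, lost in 8 of 18 alternatives, up to 0.317) and from U2SURP knockdown by -0.13, with an interval from -0.24 to -0.01 (adjusted p = 0.0659, passed in 3 of 18 alternatives, from 0.00446 to 0.704). RSRP1 differed by -0.26 (adjusted p = 0.0474) and -0.27 (adjusted p = 0.037), calls lost in 13 and in 10 of 18 alternatives, with adjusted p up to 0.357 and 0.197. SRRM2 did not pass the threshold in any of the 3 contrasts, with differences of 0.034 (adjusted p = 0.64), -0.04 (adjusted p = 0.552) and -0.074 (adjusted p = 0.332). With protein-coding genes alone in the fit, the SRRM2 difference between RBM17 and CHERP knockdown was -0.12 (adjusted p = 0.044), in a range up to 0.969.

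**Figure D3:**
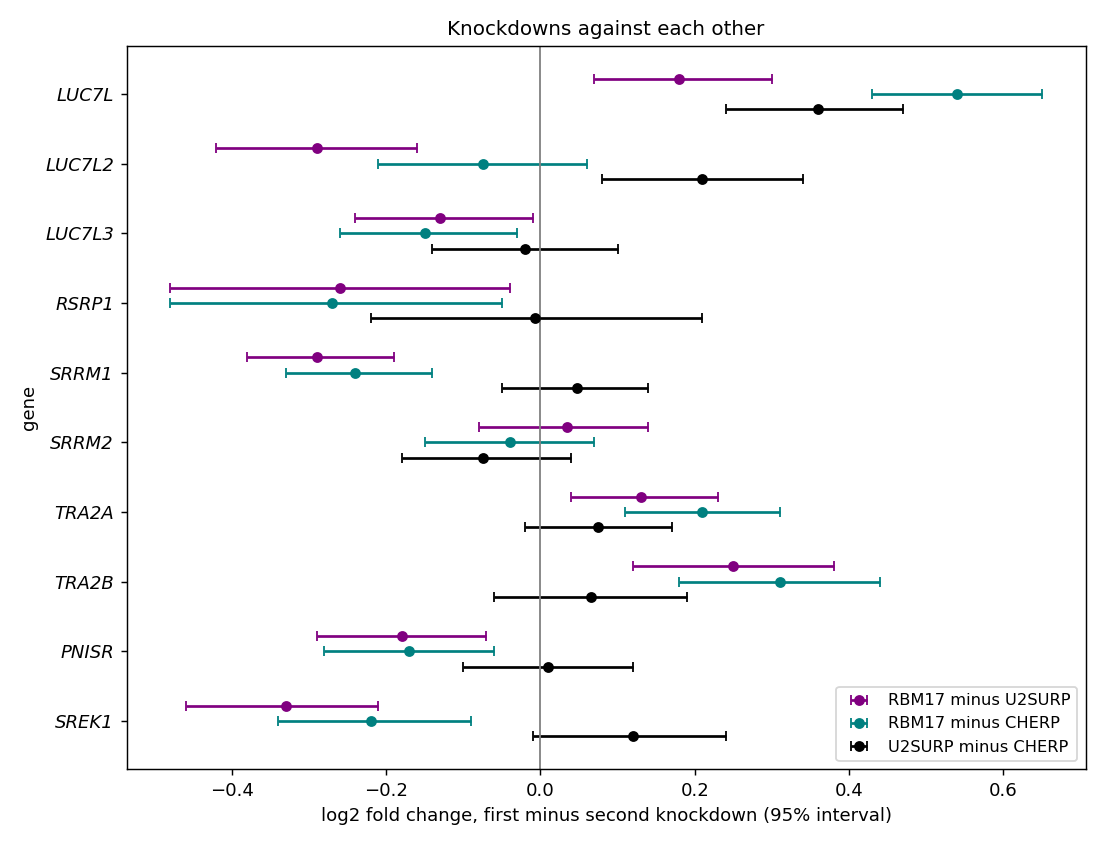
The log2 difference of each of the 10 genes between pairs of knockdowns, with 95% intervals of the fit over 12 libraries. LUC7L and TRA2B lie to the right of 0 for RBM17 against CHERP knockdown, at 0.54 and 0.31, and SRRM1 and SREK1 to the left, at -0.24 and -0.22.

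Levels of the 10 genes spanned a wide range. Per kilobase of exon in control, SRRM2 was highest at 109 CPM per kb, followed by LUC7L3 at 76.3, TRA2A at 32, PNISR at 28.4, SRRM1 at 17 and TRA2B at 13.6. SREK1 at 12.1, LUC7L at 11.7, LUC7L2 at 7.5 and RSRP1 at 5.68 CPM per kb were lower. TRA2B and SREK1 overlap over the control libraries, as do SREK1 and LUC7L, and the other neighbours in this order do not. The lengths count every annotated exon base, including exons these cells may not use and, for LUC7L2, bases shared with C7orf55-LUC7L2.

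Over the 12 libraries, LUC7L3, RSRP1 and PNISR moved almost as one. Pearson's r of log2 CPM was 0.997 for LUC7L3 with PNISR, 0.992 for LUC7L3 with RSRP1 and 0.991 for RSRP1 with PNISR. LUC7L3 and RSRP1 were picked for a shared fall in these same libraries, which helped to set their r. These correlations carry the difference between groups and share their libraries and scaling. After each group's mean was taken out they were 0.86, 0.803 and 0.763. LUC7L2 and SREK1 gave r = 0.957, or 0.833 within groups. LUC7L and TRA2A, both lowest with CHERP knockdown, gave r = 0.864, but -0.425 within groups. TRA2A and TRA2B gave 0.0517 over all libraries and 0.674 within groups.

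Likeness to the 3 picked genes was also ranked over 10919 protein-coding genes of at least 5 CPM, with the 10 genes themselves left out. The 3 most like LUC7L over the 12 libraries were ENTPD4 and TAP2 (r = 0.994 each) and CYB561A3 (r = 0.991). TAP2, a subunit of the transporter that carries peptides for antigen presentation, had means of 51.9 CPM in control and 32.3, 27.1 and 23.7 CPM with RBM17, U2SURP and CHERP knockdown, the same order as LUC7L. For LUC7L3, whose r with PNISR and RSRP1 is given above, the 3 highest outside the 10 genes were CREBZF (r = 0.991), PRPF4B (r = 0.988) and CLK1 (r = 0.985). PRPF4B and CLK1 encode kinases, and CLK1 phosphorylates RS-rich proteins. CLK1 had means of 111 CPM in control and 59.5, 70.6 and 65.3 CPM in the knockdowns. For RSRP1 they were CREBZF (r = 0.994), C14orf132 (r = 0.989) and ADCY6 (r = 0.986). CREBZF, which encodes a transcription factor, had means of 197 CPM in control and 108, 121 and 118 CPM in the knockdowns. These values are descriptions over libraries that differ by group, in which many genes move.

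The wider list of 49 other genes of RS-rich and speckle proteins was mixed in direction. With RBM17 knockdown, 16 of the 48 tested were higher, 19 lower and 13 not called, with a median log2 difference of -0.036. With U2SURP knockdown the counts were 9, 15 and 24 with a median of -0.092, and with CHERP knockdown 9, 16 and 23 with a median of -0.047. Over 16291 protein-coding genes tested the medians were 0.06, 0.0095 and -0.0028, 38.7%, 29.4% and 29.7% were higher, and 27.2%, 26.8% and 31% were lower. The medians of the 10 genes themselves were -0.66, -0.38 and -0.52, which the choice of 3 of them helped to set. SRRM4 was the gene not tested, for low counts.

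Among the genes of that list that rose most with RBM17 knockdown were SRRM3, a regulator of neuronal microexons, from 4.57 ± 0.155 to 9.07 ± 0.646 CPM (log2 difference 0.99, adjusted p = 5.96e-10), and SAP18, of the exon junction-linked ASAP complex (0.65, adjusted p = 9.86e-09). SRRM3 fell with CHERP knockdown to 3.24 ± 0.273 CPM (-0.50, adjusted p = 2.93e-05), and with U2SURP knockdown it stood at 4 ± 0.159 CPM (-0.19, adjusted p = 0.0667). SCAF8, which binds the tail of RNA polymerase II, rose with RBM17 (0.42, adjusted p = 4.81e-08), U2SURP (0.44, adjusted p = 8.40e-08) and CHERP knockdown (0.49, adjusted p = 6.63e-09). SAP18 also rose with U2SURP (0.36, adjusted p = 7.44e-05) and CHERP knockdown (0.34, adjusted p = 1.19e-04). RSRC1, an RS-rich splicing protein, rose with RBM17 (0.52, adjusted p = 1.00e-07), U2SURP (0.19, adjusted p = 0.0129) and CHERP knockdown (0.40, adjusted p = 5.10e-06). The U2SURP call for RSRC1 was lost without U2SURP knockdown library 2 (adjusted p = 0.074) or 3 (0.0515) or control library 1 (0.0746), the lowest over the alternatives being 0.00271.

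Largest among the falls with RBM17 knockdown were NKTR, a cyclophilin with an RS-rich tail, from 475 ± 27 to 261 ± 2.15 CPM (-0.86, adjusted p = 3.33e-12), and LENG8 (-0.84, adjusted p = 2.35e-09). LENG8 also fell with U2SURP (-0.54, adjusted p = 3.24e-06) and CHERP knockdown (-0.75, adjusted p = 1.91e-08), as did NKTR (-0.46, adjusted p = 1.16e-07, and -0.19, adjusted p = 0.00281). RSRC2, another RS-rich protein gene, fell with U2SURP knockdown from 150.5 ± 8.71 to 95.5 ± 1.99 CPM (-0.66, adjusted p = 6.04e-10), as did RBM25, whose protein works with the U1 snRNP (-0.60, adjusted p = 9.39e-09). Both also fell with RBM17 knockdown (-0.67, adjusted p = 9.68e-11, and -0.52, adjusted p = 2.42e-08). With CHERP knockdown RSRC2 differed by 0.06 (adjusted p = 0.346) and RBM25 by -0.055 (adjusted p = 0.447), and these 2 values were read after the falls were seen. Tested directly, RSRC2 was lower with U2SURP than with CHERP knockdown, with a log2 difference of -0.72 (adjusted p = 2.41e-10), as was RBM25 at -0.55 (adjusted p = 8.30e-08). That contrast was chosen after the falls were seen and uses the same U2SURP knockdown libraries, so it is not independent support.

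U2AF1, the small subunit of the factor that reads the 3′ splice site, was listed lower with CHERP knockdown (-1.28, adjusted p = 0.0269), and this value is uncertain. Its control libraries stood at 11, 8.38 and 12.3 CPM and its CHERP knockdown libraries at 4.36, 4.18 and 4.52 CPM. One RBM17 knockdown library, the second, stood at 13.3 CPM beside 4.6 and 4.65 CPM in the others. A near-identical copy, U2AF1L5, took 2.51 to 7.38 CPM over the libraries, and reads of the 2 copies may be split between them. The call was lost without any 1 of the 3 CHERP knockdown libraries or without control library 1 or 3, with adjusted p from 0.0637 to 0.0801, in a range over the alternatives that began at 5.47e-10.

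The 15 genes of U1 snRNP proteins and other factors at the 5′ splice site, the site the LUC7-like proteins are known for, also moved both ways. With RBM17 knockdown 9 rose, 5 fell and 1 was not called, with a median log2 difference of 0.20. With U2SURP and with CHERP knockdown 5 rose, 6 fell and 4 were not called, with medians of 0.072 and -0.089. Of the protein-coding genes tested, 38.7%, 29.4% and 29.7% were higher and 27.2%, 26.8% and 31% lower in the 3 comparisons. The count of 5 that rose with U2SURP knockdown was 3 without U2SURP knockdown library 2 or 3, CHERP knockdown library 3, or control library 1 or 2.

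SNRPC, the U1 snRNP protein that contacts the 5′ splice site duplex, rose from 73.5 ± 6.13 CPM in control to 158 ± 17.1 CPM with RBM17 knockdown (log2 difference 1.11, adjusted p = 4.09e-12). It also rose with U2SURP (0.55, adjusted p = 3.94e-07) and CHERP knockdown (0.42, adjusted p = 1.29e-05). PRPF39, a U1-associated protein, fell from 124 ± 7.9 CPM to 78.4 ± 4.23, 85.5 ± 1.65 and 75.5 ± 6.1 CPM (-0.66, -0.54 and -0.72, with adjusted p of 1.93e-09, 1.44e-07 and 9.03e-10). ZMAT5, of the minor spliceosome, rose with RBM17 (0.80, adjusted p = 1.87e-08) and CHERP knockdown (0.49, adjusted p = 3.18e-05), and also with U2SURP knockdown (0.35, adjusted p = 0.00131). ZMAT2 rose with RBM17 (0.66, adjusted p = 1.32e-09) and U2SURP knockdown (0.36, adjusted p = 1.82e-05), and with CHERP knockdown it differed by 0.0098 (adjusted p = 0.908). PRPF40B, another U1-associated protein, fell with RBM17 (-0.56, adjusted p = 2.69e-07) and CHERP knockdown (-0.38, adjusted p = 7.28e-05), and with U2SURP knockdown it differed by 0.072 (adjusted p = 0.43). The related uridine-rich intron binders TIA1 and TIAL1 fell with all 3 knockdowns. In the order RBM17, U2SURP and CHERP, TIA1 differed by -0.39, -0.43 and -0.52 (adjusted p = 2.27e-06, 1.32e-06 and 5.12e-08) and TIAL1 by -0.52, -0.38 and -0.59 (adjusted p = 3.32e-09, 9.71e-07 and 5.89e-10).

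**Figure D4:**
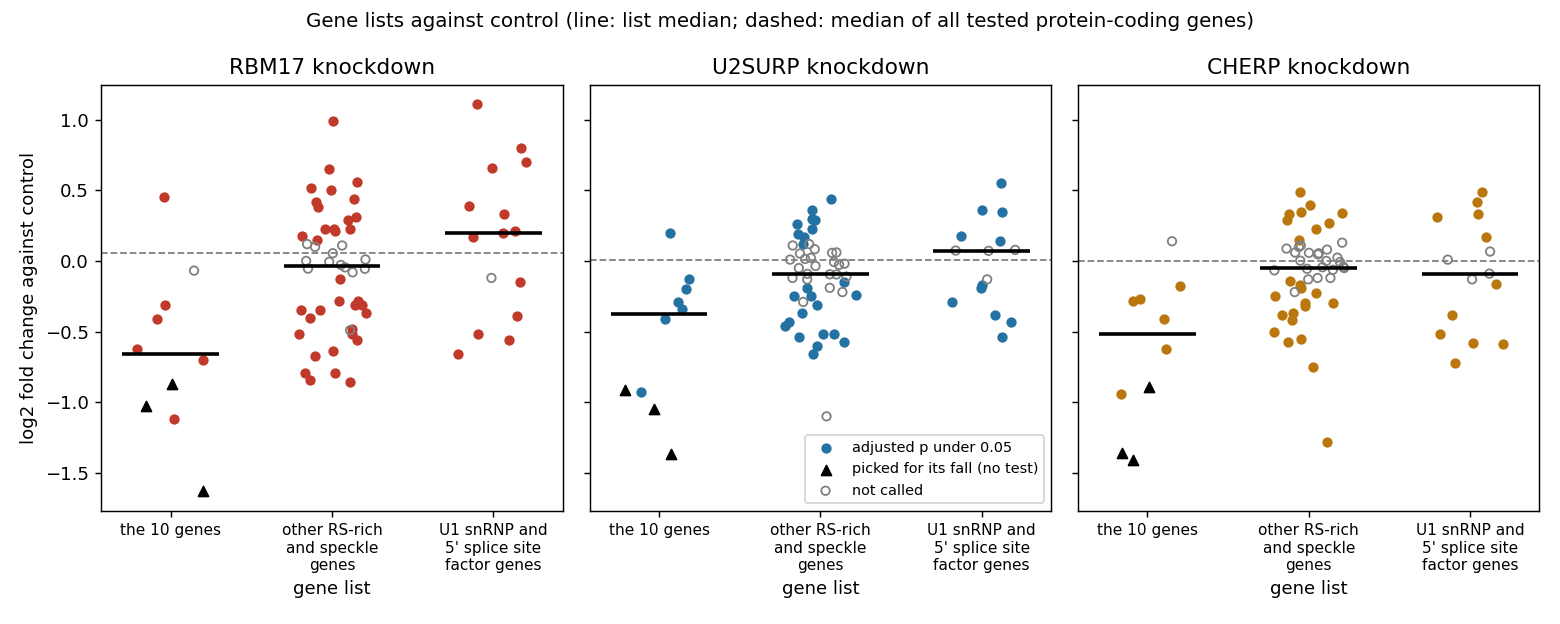
The log2 fold change against control of each gene of the 3 lists, by knockdown. Filled points passed an adjusted p of 0.05, open points did not, triangles are the 3 genes picked for their fall, thick lines are list medians and the dashed line is the median of tested protein-coding genes. The median of the 10 genes lies at -0.66, -0.38 and -0.52, and those of the other lists lie between -0.092 and 0.20.

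The annotation lists many non-productive transcripts for these genes. A median of 47.7% of their annotated transcripts were retained-intron or nonsense-mediated decay models, from 9.09% for PNISR to 62.5% for SREK1, against a median of 20% over 16291 tested protein-coding genes. They also had more annotated transcripts, a median of 18.5 against 7. Gene counts pool all of these models, so a shift between them cannot be seen here.

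Some members share bases or sequence with neighbours, which bears on how reads were assigned. LUC7L2 shares 1377 exonic bases, 21.8% of its own, with the readthrough gene C7orf55-LUC7L2, which had 0 counts in every library. Reads in the shared bases may have been counted for neither gene. The 0 therefore does not show that the readthrough gene was silent, and LUC7L2 counts may lack those reads. Over aligned coding sequence LUC7L and LUC7L2 were identical at 70.9% of bases, LUC7L and LUC7L3 at 60.3%, LUC7L2 and LUC7L3 at 62.7%, and TRA2A and TRA2B at 67%. On the same strand, RSRP1 shares 426 exonic bases, 6.26% of its own, with the pseudogene AL928711.1, which had group means of 0.0101 to 0.0291 CPM. LUC7L3 likewise shares 229, or 2.81%, with AC005921.3, at 0.0953 to 0.142 CPM. Reads in those bases may also have been counted for neither gene. RSRP1 shares 297 exonic bases with TMEM50A on the other strand, which had means of 69.9 CPM in control and 68.8, 58.7 and 52.8 CPM with RBM17, U2SURP and CHERP knockdown. SRRM2 shares 159 bases with its antisense gene SRRM2-AS1, at 10.3 CPM in control and 4.24 to 5.5 CPM in the knockdowns, and 190 with ELOB, at 70.6 CPM in control and 85.9 to 117 CPM in the knockdowns. PNISR shares 117 bases with AL513550.1, at 6.05 to 10.1 CPM. The kit marks strand, but whether the counting used it is not given in the sources used here.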

How the data were processed

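RNA of 12 HEK293 samples was sequenced with a stranded mRNA kit, per the labels' protocols. The authors deposited raw read counts per Ensembl gene ID, 1 file per sample. The submitters' processing notes name HISAT2 2.0.5, SAMtools, HTSeq and GRCh38; no source used here gives the strand setting or annotation release. GENCODE 29 named 56996 of 60554 IDs.

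Genes kept by filterByExpr were tested with edgeR 4.0.16 (R 4.3.3): TMM scaling, robust quasi-likelihood fit of all 4 groups with no covariate, 6 contrasts, Benjamini-Hochberg adjustment over 29003 genes, threshold 0.05. The test was first tried on simulated data. DESeq2 1.42.0, other scalings, filters, gene sets and each library left out were alternatives. Replicate numbers follow accession order. No label ties a library to its own culture, and the p-values therefore reflect only how these libraries vary, which may be technical.

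The genes and lists were chosen with earlier results of these data known. Named list genes are, per list, knockdown and direction, the 2 called genes of at least 5 CPM with the largest change; like genes are the 3 with the highest correlation for each picked gene, the 10 genes left out. The values of 1 marker gene, and the sum of its list, are not reported here. Codon pairs were counted with Biopython 1.88 in 1 GENCODE transcript per gene.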

Additional observations from a re-analysis of the deposited data

How the results depend on the processing

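No called value changed direction under any of the 18 alternatives. Of 432 recomputed counts over genes or lists, 423 stayed within 1.5 times of the reported count and 9 moved, all when 1 library was left out. With 1 library left out, the number of the 10 genes called ran from 4 to 8 for RBM17 against CHERP knockdown and from 1 to 2 for U2SURP against CHERP knockdown. Over the other settings the first ran from 6 to 10, highest with protein-coding genes alone, and the second was 2. With 1 library left out, the number of the 15 genes at the 5′ splice site that rose with U2SURP knockdown ran from 3 to 5. Of the values of single genes, 1853 kept their side of the threshold or, with no test, stayed within the spread between libraries. Some of these changed sign with no call, such as PNISR between U2SURP and CHERP knockdown, which ran from -0.034 to 0.055. Another 62 lost their call, 22 gained one and 7 moved by more than the spread between libraries. The cause was not tested. No paired analysis was possible because the labels give no replicate numbers shared between the groups. Leaving out RBM17 knockdown library 2 and control library 3 together was chosen after seeing the data. With 3 libraries a group, small log2 differences such as that of SRRM1 with U2SURP knockdown (-0.13) sit near the threshold even for abundant genes.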
